A study of Mus musculus with 6 samples.

Results

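The small proline-rich (Sprr) family was followed across esophageal and stomach organoids through 10 genes, *Sprr1a*, *Sprr1b*, *Sprr2b*, *Sprr2d*, *Sprr2e*, *Sprr2f*, *Sprr2g*, *Sprr2h*, *Sprr3* and *Sprr4*. They were chosen by gene name, and each was measured by 1 probe, so that they make up 10 of 55681 non-control probes and 10 of 34298 gene names on the arrays. A further 6 *Sprr* genes with 7 probes (*Sprr2a1*, *Sprr2a2*, *Sprr2a3*, *Sprr2i*, *Sprr2j-ps* and *Sprr2k*) lie beside or among them on chromosome 3 and are given for comparison.

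The data are 6 single-color Agilent arrays of 3D organoids at passage 0, and the titles of all 6 samples carry the word Control. The labels number the mice 1, 2 and 4 in both tissues, with 1 culture per number and tissue. The methods name wild-type C57BL/6 females and isolate stomach glands from the corpus. All organoids were harvested on day 8 except those of the stomach of mouse 4, which were harvested on day 7. The stomach medium held WNT3A, R-spondin1 and gastrin and the esophagus medium held forskolin and neither WNT3A nor R-spondin1, so tissue and medium cannot be told apart. Of the non-control spots, 45.5% to 51.1% were well above background on each array. Mean log2 values of 5 basal squamous markers ranged from 14.6 to 14.8 in the esophagus and from 6.34 to 6.51 in the stomach. Of these 5, *Trp63* by its brightest probe went the other way, at 9.99 in the esophagus and 11.20 in the stomach. Mean values of 10 gastric columnar markers were 5.97 to 6.30 in the esophagus and 14.9 on every stomach array, so both tissue labels matched the marker means. The esophagus array of mouse 4 was alone on its slide, and the other 5 arrays shared another slide.

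Sprr proteins are short, proline-rich structural proteins of squamous epithelia. In suprabasal cells, transglutaminases cross-link them with loricrin, involucrin and other precursors into the cornified envelope, a protein shell that forms beneath the plasma membrane and gives the tissue mechanical strength. Their genes sit in the epidermal differentiation complex, beside the late cornified envelope (*Lce*) genes. *Sprr3* is also known as esophagin for its abundance in the esophageal lining, whereas some *Sprr2a* genes are expressed in simple gut epithelium.

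Upstream sequences are given first for 2 pairs of related genes of which 1 rose in the esophagus and the other did not pass (*Sprr2d* and *Sprr2b*, *Sprr1b* and *Sprr1a*), and for *Sprr3*, which rose. RefSeq (GRCm38.p6) supplied a promoter for 9 of the 10 genes, with *Sprr2g* unmatched. The 250 bases before each start site read 5′ to 3′ on the strand of the gene, which is plus at chr3:92316455-92316704 (*Sprr2b*) and chr3:92338890-92339139 (*Sprr2d*) and minus at chr3:92485882-92486131 (*Sprr1a*), chr3:92438780-92439029 (*Sprr1b*) and chr3:92458721-92458970 (*Sprr3*). Capitals mark letters that match the AP-1 motif TGANTCA, the octamer motif ATGCAAAT or the TATA box TATAAA on either strand.
Sprr2b: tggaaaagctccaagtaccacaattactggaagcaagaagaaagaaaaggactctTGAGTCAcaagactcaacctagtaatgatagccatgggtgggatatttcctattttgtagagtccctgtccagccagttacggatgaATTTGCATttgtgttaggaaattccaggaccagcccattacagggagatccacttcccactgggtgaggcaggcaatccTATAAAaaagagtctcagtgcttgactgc
Sprr2d: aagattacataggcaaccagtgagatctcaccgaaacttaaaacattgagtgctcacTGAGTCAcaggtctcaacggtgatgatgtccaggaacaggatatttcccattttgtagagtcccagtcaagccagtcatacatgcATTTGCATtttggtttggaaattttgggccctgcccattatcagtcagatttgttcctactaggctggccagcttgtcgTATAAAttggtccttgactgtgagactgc
Sprr1a: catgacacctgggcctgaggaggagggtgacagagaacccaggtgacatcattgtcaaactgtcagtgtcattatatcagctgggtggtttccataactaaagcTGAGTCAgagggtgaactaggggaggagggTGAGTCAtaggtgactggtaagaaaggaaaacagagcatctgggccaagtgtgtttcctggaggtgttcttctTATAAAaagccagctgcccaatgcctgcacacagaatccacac
Sprr1b: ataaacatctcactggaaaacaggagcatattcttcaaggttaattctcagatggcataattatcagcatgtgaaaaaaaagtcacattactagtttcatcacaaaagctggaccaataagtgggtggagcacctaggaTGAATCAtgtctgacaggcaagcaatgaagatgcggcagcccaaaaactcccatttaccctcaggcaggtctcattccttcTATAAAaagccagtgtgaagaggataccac
Sprr3: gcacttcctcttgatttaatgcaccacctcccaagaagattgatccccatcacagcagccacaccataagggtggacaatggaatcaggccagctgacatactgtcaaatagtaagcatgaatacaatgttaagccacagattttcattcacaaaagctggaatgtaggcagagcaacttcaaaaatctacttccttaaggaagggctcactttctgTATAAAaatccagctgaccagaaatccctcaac

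Motifs were searched on both strands of windows of 300 bases that reach 50 bases past the start. The AP-1 motif occurred in 7 of the 9 promoters, all but those of *Sprr3* and *Sprr4*, against 7.81% of 32851 RefSeq promoters of the same length. The octamer occurred in the 5 *Sprr2* promoters, against 1.74%, and the TATA box in all but that of *Sprr4*, against 13.6%. The shorter KLF motif CACCC was found in 4 of 9 (*Sprr1a*, *Sprr1b*, *Sprr2b* and *Sprr3*) against 57.5%, and the KLF motif GGGTGTGG, the ETS motif CAGGAAG and the GRHL motif AACCGGTT in none, against 3.56%, 13.3% and 0.146%. Paralogs resemble each other in sequence, so these matches are not independent of one another. Of the other *Sprr* genes, *Sprr2i* and *Sprr2k* also held AP-1, octamer and TATA matches. *Sprr2a1*, *Sprr2a2* and *Sprr2a3*, which were not higher in the esophagus, held none of these 3 and each held CAGGAAG once. Their windows end at or soon after the stretch ccagcccattacaggg, which in *Sprr2b* lies before the TATA box. These windows are thus placed differently from that of *Sprr2b*, and their lack of a TATA match cannot be compared with it. All motif hits given here are matches of letters, not measured binding.

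The octamer began at positions from -108 to -112 in the *Sprr2* members, counted back from the start site, within stretches shown so that the members that rose (*Sprr2d*, *Sprr2f*, *Sprr2h*) can be set beside those that did not pass (*Sprr2b*, *Sprr2e*).
Sprr2b: ttacggatgaATTTGCATttgtgttagg
Sprr2d: tcatacatgcATTTGCATtttggtttgg
Sprr2e: tcatgcatggATTTGCATtttggtttgg
Sprr2f: tcatgcatggATTTGCATtttgattggg
Sprr2h: ttaaacacagATTTGCATtttggttatg

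*Sprr2b* and *Sprr2d* both held AP-1 (at -195 and -193), the octamer (at -108 in both) and TATA (at -29 in both), and *Sprr2b* also held CACCC on the opposite strand at -160 and -47, which *Sprr2d* did not. *Sprr2k*, which was higher in the esophagus, also held CACCC on the opposite strand at -47. Aligned over 300 bases the promoters of *Sprr2b* and *Sprr2d* were 66.2% identical, those of *Sprr2d* and *Sprr2e* 89.1%, and those of *Sprr1a* and *Sprr1b* 56.3%.

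Values are the deposited log2 intensities of each array, and differences are given as esophagus minus stomach from a limma fit over all probes, with Benjamini-Hochberg adjustment over 55681 probes. At adjusted p under 0.05, 6 of the 10 genes were higher in esophageal organoids and none was higher in stomach organoids, against 7.15% and 7.70% of all 34298 gene names. By unadjusted p under 0.05 with a change of at least 1.5-fold, the rule the methods state, *Sprr2b* also passed as higher in stomach organoids (10.7% of gene names) and *Sprr2e* as higher in esophageal organoids (3768 of 34298 gene names). All 3 esophagus arrays lay above all 3 stomach arrays for 7 of the 10 genes, which was so for 16.9% of gene names. The 6 genes that rose were *Sprr1b*, *Sprr2d*, *Sprr2f*, *Sprr2g*, *Sprr2h* and *Sprr3*. *Sprr2e* missed the threshold, *Sprr1a* and *Sprr2b* were measured on every array of both tissues, and *Sprr4* was near background. In these bulk samples, fewer cells of a type and less RNA per cell cannot be told apart.

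**Figure D1:**
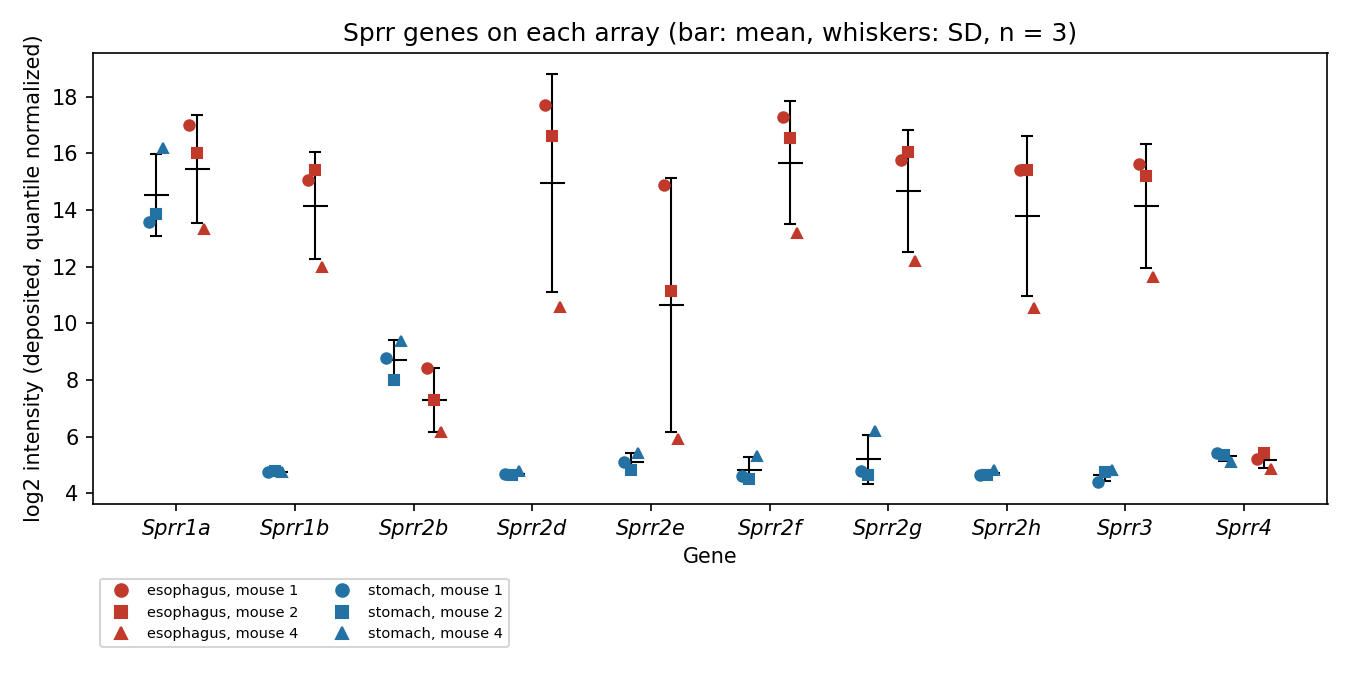
Deposited log2 intensity (vertical axis) of the 10 *Sprr* genes on each of the 6 arrays, with esophagus in red, stomach in blue, mice by symbol, the mean as a bar and the SD (n = 3) as whiskers. Triangles mark mouse 4, whose esophagus array gave the lowest esophagus value for all 10 genes.

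Among the *Sprr1* genes, *Sprr1b* encodes a cornifin, an envelope precursor cross-linked in squamous cells. Its probe (NM_009265, chr3:92240731-92240790 of mm9, minus strand) read 15.05, 15.40 and 11.97 in the esophagus of mice 1, 2 and 4 and 4.75, 4.79 and 4.76 in the stomach. The esophagus arrays were all far above the stomach arrays, which were not well above background and differed by hundredths. *Sprr1b* had a level at least 664-fold higher in esophageal organoids, with a measured log2 difference of 9.38 (standard error 0.80, limma adjusted p = 0.000185). The bound was 429-fold without the esophagus array of mouse 2 and 1408-fold without that of mouse 4.

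*Sprr1a*, its close relative, did not follow it. The probe (NM_009264, chr3:92287955-92288014 of mm9, minus strand) read 17.00, 15.996 and 13.34 in the esophagus and 13.56, 13.84 and 16.20 in the stomach. All 6 values were well above background and the tissues overlapped, since the esophagus of mouse 4 lay below every stomach array and the stomach of mouse 4 above the esophagus of mice 2 and 4. The log2 difference was 0.91 (standard error 1.003, limma adjusted p = 0.670), with a 95% confidence interval from -1.42 to 3.24. It was 0.13 without the esophagus array of mouse 1, 1.97 without that of mouse 4 and 1.74 without the stomach array of mouse 4, and passed in none of these (limma adjusted p = 0.961, 0.179 and 0.341). Under mouse number 4 the stomach value exceeded the esophagus value, and under numbers 1 and 2 the order was the opposite.

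*Sprr2d*, another envelope precursor, rose with a wide spread. It read 17.70, 16.62 and 10.57 in the esophagus and 4.69, 4.63 and 4.78 in the stomach (NM_011470, chr3:92144721-92144780 of mm9, plus strand). The esophagus arrays were well separated from the stomach arrays, none of which was well above background, and mouse 4 lay several log2 units below mice 1 and 2. *Sprr2d* had a level at least 1232-fold higher in esophageal organoids (log2 difference 10.27, standard error 1.61, limma adjusted p = 0.00481), although with a variance trend and robust variances it missed the threshold (limma adjusted p = 0.0572). The bound was 477-fold, 694-fold and 5650-fold without the esophagus array of mouse 1, 2 and 4 in turn.

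*Sprr2f* (NM_011472, chr3:92170259-92170318 of mm9, plus strand) read 17.27, 16.54 and 13.19 in the esophagus and 4.63, 4.52 and 5.34 in the stomach, where the array of mouse 4 alone was well above background. The tissues did not overlap, and the log2 difference of 10.84 (standard error 0.94, limma adjusted p = 0.000201) passed the test. It was 10.03 without the esophagus array of mouse 1 and 12.08 without that of mouse 4. With 2 of the 3 stomach values at background, the size of this difference depends on the background correction. *Sprr2g* (NR_003548, a non-coding record; chr3:92179092-92179151 of mm9, plus strand) read 15.75, 16.06 and 12.20 against 4.78, 4.63 and 6.19. Its stomach value in mouse 4 was again the one well above background and stood more than 1 log2 unit over the other stomach arrays. Its log2 difference was 9.46 (standard error 0.97, limma adjusted p = 0.00053), and 8.77 without the esophagus array of mouse 2 and 10.70 without that of mouse 4, with the same limit.

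*Sprr2h* (NM_011474, chr3:92191160-92191219 of mm9, plus strand) read 15.42, 15.42 and 10.54 in the esophagus and 4.65, 4.63 and 4.83 in the stomach, with no stomach array well above background. It had a level at least 543-fold higher in esophageal organoids (log2 difference 9.09, standard error 1.18, limma adjusted p = 0.00188). The bound was 309-fold without the esophagus array of mouse 1, 310-fold without that of mouse 2 and 1678-fold without that of mouse 4. Mice 1 and 2 agreed closely, and mouse 4 was the lowest of the esophagus arrays.

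*Sprr2e* had the widest spread over the esophagus arrays of the 10 genes. It read 14.87, 11.13 and 5.93 in the esophagus and 5.10, 4.82 and 5.42 in the stomach (NM_011471, chr3:92157288-92157347 of mm9, plus strand). The tissues did not overlap, but the esophagus of mouse 4 came within 1 log2 unit of the stomach of mouse 4, the one stomach array well above background. The log2 difference of 5.53 (standard error 1.88, 95% confidence interval 1.16 to 9.90) did not pass (limma adjusted p = 0.113). This difference was 3.42 when the esophagus array of mouse 1 was left out (limma adjusted p = 0.163). Without the esophagus array of mouse 4 it was 7.89 and passed (limma adjusted p = 0.0019), and it also passed with the software's background-subtracted signal scaled to the 75th percentile, which changes the background correction and the scaling together (7.14, limma adjusted p = 0.0469).

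*Sprr2b*, the neighbour of *Sprr2d*, did not rise with it. It read 8.43, 7.29 and 6.16 in the esophagus and 8.76, 8.002 and 9.38 in the stomach (NM_011469, chr3:92121660-92121719 of mm9, plus strand), all well above background. The stomach of mouse 2 lay below the esophagus of mouse 1, so the tissues overlapped, although under each mouse number the stomach value was the higher one. Its log2 difference was -1.42 (standard error 0.57, 95% confidence interval -2.74 to -0.10) and did not pass (limma adjusted p = 0.176). Without the esophagus array of mouse 1 it was -1.99 and passed (limma adjusted p = 0.0361), and without that of mouse 4 it was -0.85 (limma adjusted p = 0.344).

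*Sprr3* (NM_011478, chr3:92260903-92260962 of mm9, minus strand) read 15.62, 15.19 and 11.62 in the esophagus and 4.42, 4.75 and 4.83 in the stomach. No stomach array was well above background, and every esophagus array was far above all of them. *Sprr3* had a level at least 701-fold higher in esophageal organoids (log2 difference 9.47, standard error 0.93, limma adjusted p = 0.000404). The bound was 420-fold without the esophagus array of mouse 1 and 1678-fold without that of mouse 4.

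*Sprr4* (NM_173070, chr3:92304195-92304254 of mm9, minus strand) read 5.21, 5.44 and 4.88 in the esophagus and 5.44, 5.36 and 5.12 in the stomach. Only the stomach array of mouse 1 was well above background, so no fold is given, and the tissues overlapped. Its log2 difference was -0.13 (95% confidence interval -0.57 to 0.30, limma adjusted p = 0.752), and 0.01 without the esophagus array of mouse 4.

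The sizes given for the 6 genes that rose hold for the deposited values and moved with the background correction, while each gene still passed. With normexp on mean intensities at an offset of 50 the log2 differences were 8.16 (*Sprr1b*), 9.06 (*Sprr2d*), 9.61 (*Sprr2f*), 8.45 (*Sprr2g*), 7.85 (*Sprr2h*) and 8.22 (*Sprr3*). The bounds of *Sprr1b*, *Sprr2d*, *Sprr2h* and *Sprr3* were then 286-fold, 534-fold, 230-fold and 290.0-fold, below those of the deposited values. With the software's background-subtracted signal scaled to the 75th percentile the differences were 11.86 (*Sprr2g*) to 13.42 (*Sprr2d*), and the 4 bounds ran from 4885-fold (*Sprr2h*) to 10298-fold (*Sprr2d*).

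**Figure D2:**
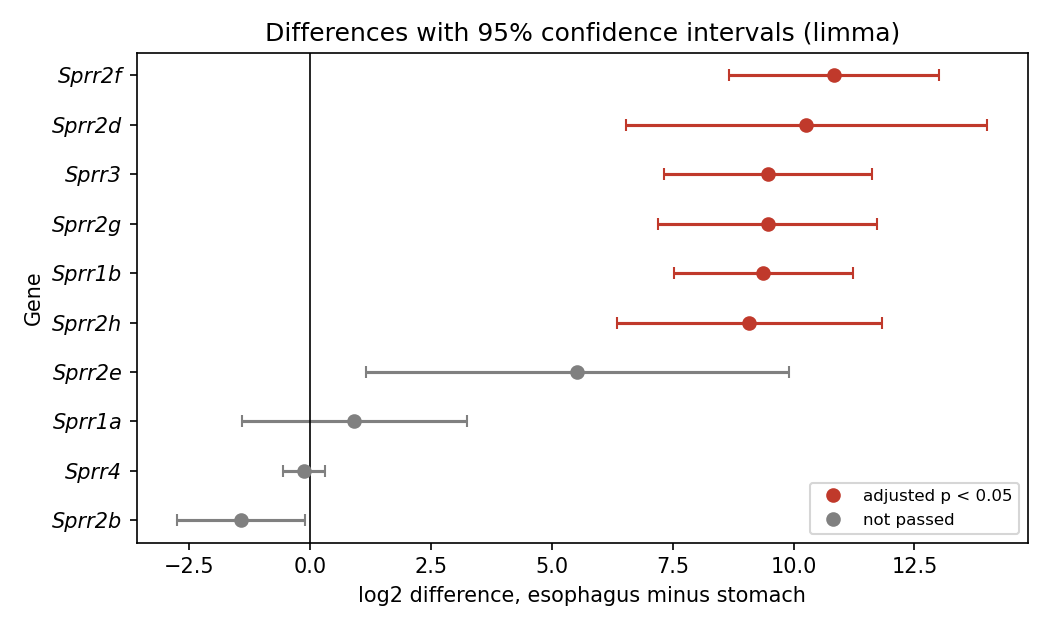
Log2 difference (esophagus minus stomach, horizontal axis) of each *Sprr* gene with its 95% confidence interval from limma, in red where adjusted p was under 0.05. The 6 red genes have differences of 9.09 to 10.84, and the interval of *Sprr2e* runs from 1.16 to 9.90. For genes below background in the stomach the plotted value depends on the background level.

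The probes of the family spanned 276.8 kb of chromosome 3 from *Sprr2a1* to *Sprr4* (mm9). In the first 94.3 kb, from *Sprr2a1* to *Sprr2b*, every *Sprr* probe had a negative difference, of which those of *Sprr2a1* and the dimmer *Sprr2a3* probe passed the test. That of *Sprr2a2* turned to 0.02 with the software's signal scaled to the 75th percentile. From *Sprr2d* at 117.4 kb to *Sprr3* at 233.6 kb, 10 *Sprr* genes had positive differences of 5.53 to 10.84, and *Sprr2e* alone of these did not pass. Among them, between *Sprr2j-ps* and *Sprr2k*, lies a probe outside the family, named by transcript ENSMUST00000192538.1, with a difference of 0.61 (limma adjusted p = 0.113). *Sprr1a* and *Sprr4*, at 260.6 and 276.8 kb, had differences of 0.91 and -0.13. The arrangement along the chromosome was not tested.

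Of the 6 other *Sprr* genes, *Sprr2i*, which follows *Sprr2h*, read 16.002, 14.67 and 10.44 in the esophagus and 4.69, 4.85 and 4.49 in the stomach and had a level at least 507-fold higher in esophageal organoids (limma adjusted p = 0.00227). *Sprr2j-ps* was at least 195-fold (limma adjusted p = 0.00382) and *Sprr2k* at least 98.4-fold higher (limma adjusted p = 0.0146), and no stomach array was well above background for any of the 3. Without the esophagus array of mouse 1 these bounds were 229-fold, 84.0-fold and 47.5-fold, and without that of mouse 4 they were 1572-fold, 534-fold and 349-fold. *Sprr2k* missed the threshold without the esophagus array of mouse 2 (at least 57.6-fold, limma adjusted p = 0.0549) or the stomach array of mouse 1 or 2 (limma adjusted p = 0.0677 and 0.0648). At an offset of 50 on mean intensities the 3 bounds were 212-fold, 88.0-fold and 40.7-fold, and *Sprr2k* did not pass there (limma adjusted p = 0.0779) or with a variance trend and robust variances (limma adjusted p = 0.0988). *Sprr2a2* was bright in both tissues, at 16.54 ± 0.24 and 16.75 ± 0.14 (SD, n = 3; limma adjusted p = 0.553).

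*Sprr2a3* was also bright, at 17.11 ± 0.28 and 17.67 ± 0.08 (SD, n = 3, in the same order; limma adjusted p = 0.0909). *Sprr2a1* was higher in the stomach, at least 2.92-fold (limma adjusted p = 0.000596), and no esophagus array measured it well above background. That bound was 1.75-fold at an offset of 50 on mean intensities and 12.7-fold with the software's signal, and *Sprr2a1* passed in both. The dimmer probe of *Sprr2a3* read 10.91, 9.89 and 9.01 in the esophagus and 11.46, 11.48 and 12.02 in the stomach (log2 difference -1.72, limma adjusted p = 0.0422). It missed the threshold without any one array but the esophagus array of mouse 1 (limma adjusted p from 0.0585 to 0.117), with the offset of 50, with the software's signal or with the mouse number as a block (limma adjusted p = 0.0782, 0.057 and 0.0693). Of its 60 bases, 51 in a row were identical to the RefSeq window of *Sprr2b*, 18 of them before the annotated start site and 33 after it, so this probe may not separate *Sprr2a3* from *Sprr2b*.

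**Figure D3:**
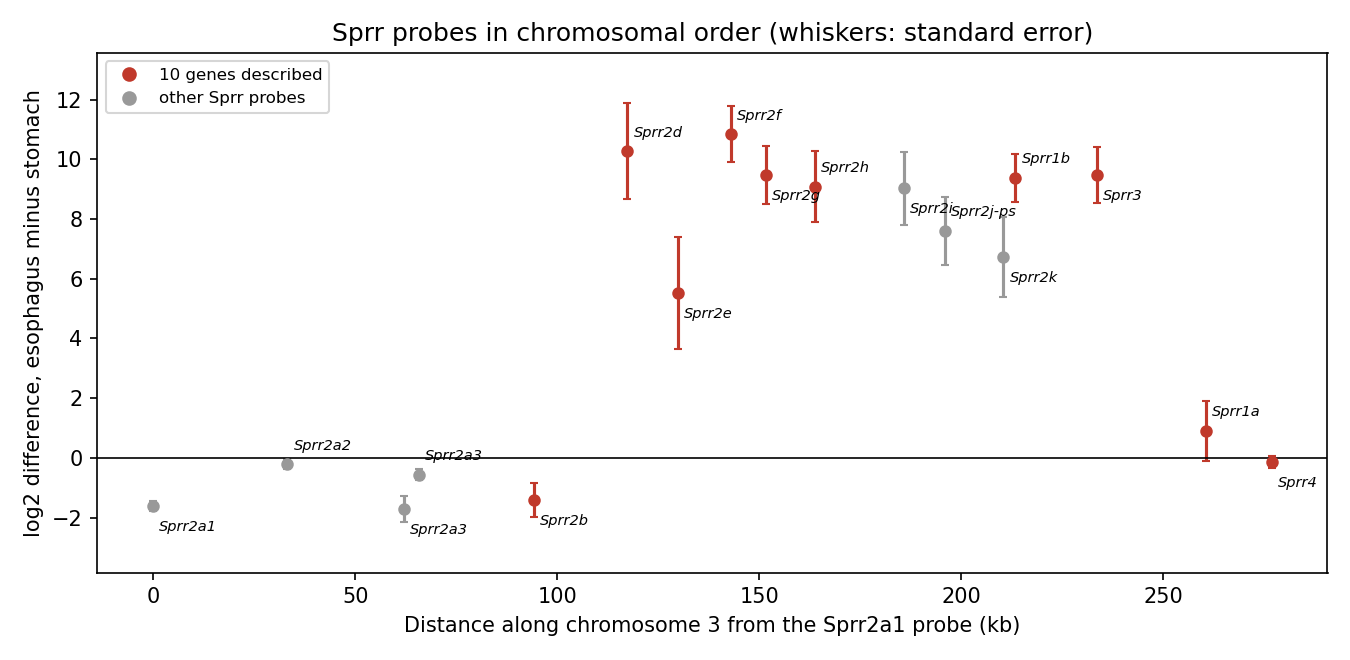
Log2 difference (esophagus minus stomach, vertical axis) of all *Sprr* probes against distance in kb along chromosome 3 from the *Sprr2a1* probe, with standard errors as whiskers. The 10 family members described are in red and the other *Sprr* probes in grey, and the genes from *Sprr2d* at 117.4 kb to *Sprr3* at 233.6 kb have positive differences.

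Member probes shared at most 15 bases in a row with the probe of another *Sprr* gene, as in gtttcatttcctgaa, common to the probes of *Sprr2d* and *Sprr2a3*. Hybridization between the paralogs was not measured here. Outside the family, the nearest named genes were *Lelp1* on one side and *Ivl* on the other. *Lelp1* gave 7.01 ± 1.06 and 5.998 ± 0.06 (SD, n = 3; esophagus, then stomach) on its brighter probe (limma adjusted p = 0.238), and its dimmer probe stayed near background throughout. The brighter probe passed with the slide as a term (log2 difference 1.62, limma adjusted p = 0.000689). *Ivl*, which encodes the envelope precursor involucrin, read 8.07, 6.90 and 7.90 in the esophagus and 7.17, 7.51 and 8.06 in the stomach. Its tissues overlapped and its log2 difference was 0.05 (limma adjusted p = 0.960), and -0.09 with the software's signal or with the slide as a term.

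The spread among esophagus replicates was the second main feature of most members, though not of every *Sprr* gene. The esophagus array of mouse 4 gave the lowest of the 3 esophagus values for 10 of 10 genes, *Sprr4* near background among them, which was so for 29.8% of the 16602 gene names well above background on all esophagus arrays. It lay at least 3 log2 units under the mean of mice 1 and 2 for 8 of the 9 members above background on all esophagus arrays, against 0.747% of those names. The median shortfall over these 9 members was -3.72, ranging from -1.70 for *Sprr2b* to -7.07 for *Sprr2e*, and the median over all these names was 0.06. The SD over the esophagus arrays ranked from percentile 97.1 (*Sprr2b*) to percentile 99.99 (*Sprr2e*) among 22815 probes well above background on these arrays, whose median SD was 0.290. Outside the members, *Sprr2i*, *Sprr2j-ps* and *Sprr2k* ranked at percentiles 99.8, 99.7 and 99.8, and the dimmer *Sprr2a3* probe at 95.6. *Sprr2a2* and the brighter *Sprr2a3* probe ranked only at 39.7 and 47.4, with shortfalls of -0.39 and -0.44. The esophagus array of mouse 4 cannot be told apart from its slide.

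The shortfall was uneven across epithelial genes measured beside the family. Basal markers gave a median of 0.01 for mouse 4 against mice 1 and 2, and their mean log2 level was 14.8 in mouse 4 and 14.6 and 14.7 in mice 1 and 2. Suprabasal markers (*Krt4*, *Krt13*, *Krt6a*, *Tgm1* and *Krtdap*) gave -0.77, with mean levels of 15.7 in mice 1 and 2 and 14.8 in mouse 4. These 5 shortfalls ranged from -0.31 for *Krt13* to -1.81 for *Tgm1*, and the list of 13 suprabasal keratins and differentiation genes gave a median of -1.22. The cross-linking enzymes gave a median of -1.81, other envelope precursors -1.62 and the *Lce* genes -5.64. Of the immune genes *Cd68* gave -2.06, and the median of the 4 above background on all esophagus arrays was -0.11. The part of these cell markers, or of the slide, in the *Sprr* values was not tested.

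In the stomach the array of mouse 4, from organoids harvested on day 7, gave the highest of the 3 values for 8 of 10 members, against 39.6% of all gene names. Most of these ranks rest on values near background, since 4 of the 10 genes were well above background on no stomach array and 4 on 1 only. The excess over mice 1 and 2 was 2.50 log2 units for *Sprr1a*, 1.49 for *Sprr2g* and 1.001 for *Sprr2b*, and under 1 for the others. The mean of the suprabasal markers was 5.85 on this array and 5.23 and 5.07 on the other stomach arrays. Of the 5 suprabasal markers, 3, 0 and 3 were well above background on the stomach arrays of mice 1, 2 and 4, and of the 5 basal markers 2, 1 and 4, with mean levels of 6.37, 6.34 and 6.51. These basal counts and means include the brightest *Trp63* probe, which was well above background on each of these arrays. It read 11.39, 11.66 and 10.57, lowest in mouse 4. The part of squamous cells in these stomach values was not tested.

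**Figure D4:**
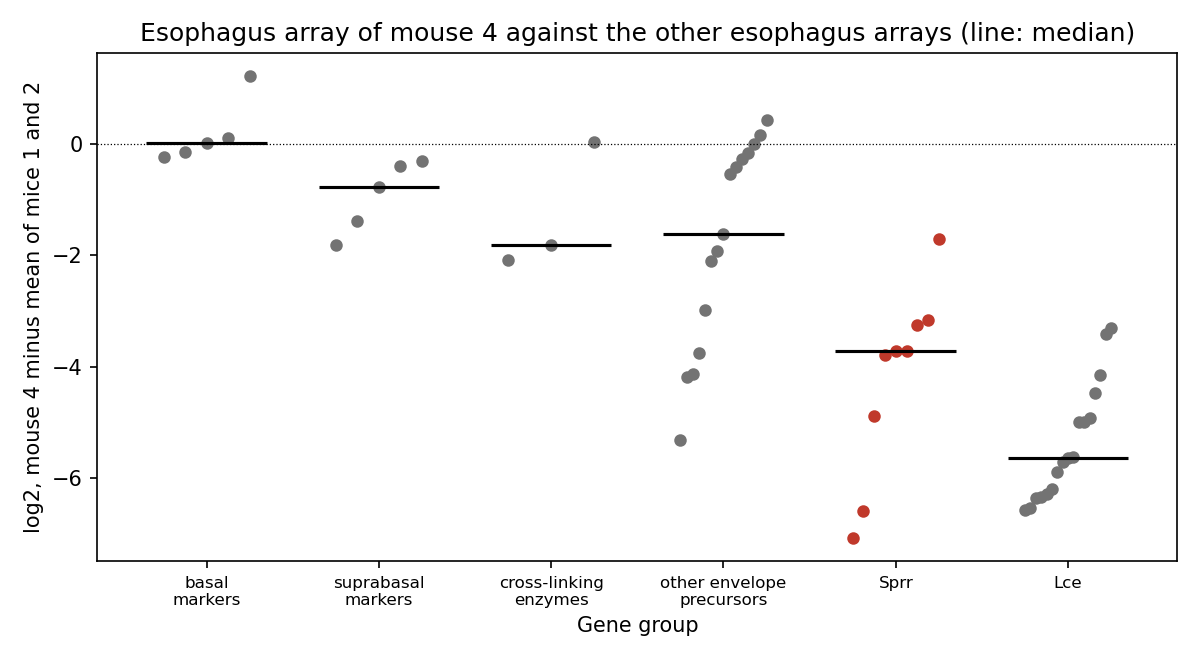
Log2 value of the esophagus array of mouse 4 minus the mean of mice 1 and 2 (vertical axis) for each gene well above background on all esophagus arrays, by gene group, with the group median as a line. The *Sprr* genes (red) run from -1.70 to -7.07 around a median of -3.72, basal markers lie around 0.01 and *Lce* genes around -5.64.

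Other genes of the envelope pathway give the setting for the family. Of 4 cross-linking enzymes, 2 rose in esophageal organoids and 1 in stomach organoids, against 7.15% and 7.70% of all gene names. *Tgm1*, the membrane-anchored keratinocyte transglutaminase, read 14.80, 13.55 and 12.36 in the esophagus and 5.64, 5.22 and 6.95 in the stomach (log2 difference 7.64, limma adjusted p = 0.00018), and *Tgm5* rose by 3.23 (limma adjusted p = 0.00645). Without the esophagus array of mouse 4 these differences were 8.24 and 3.92, and that of *Tgm1* was 7.02 without the esophagus array of mouse 1. *Tgm3*, the epidermal transglutaminase, had probes that disagreed, with a difference of -0.09 on the brighter one (limma adjusted p = 0.901) and a level at least 51.3-fold higher in esophageal organoids on the dimmer one (limma adjusted p = 0.0025), which no stomach array measured well above background. That bound was 23.2-fold at an offset of 50 on mean intensities. The measured log2 difference of this dimmer probe was 5.68, and 6.70 with the slide as a term. *Tgm2*, the tissue transglutaminase, had a level at least 416-fold higher in stomach organoids (limma adjusted p = 5.75e-07), or 181-fold at that offset. The esophagus values of *Tgm1* fell in the order of mice 1, 2 and 4, with no overlap with the stomach.

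Of 20 other envelope precursors and partners, 11 rose in the esophagus and 9 did not pass, with a median log2 difference of 2.02 against 0.03 over all gene names. The share of all gene names that rose was 7.15%. *Crct1*, a cysteine-rich protein of the same complex, read 17.33, 17.07 and 14.22 against 6.46, 5.94 and 6.41 (log2 difference 9.93, limma adjusted p = 8.89e-05, and 10.93 without the esophagus array of mouse 4). *Lor* (loricrin) rose by 6.98 (limma adjusted p = 0.0152) and *Cnfn* (cornifelin) by 6.12 (limma adjusted p = 0.0157). Both missed the threshold without the stomach array of mouse 1 or of mouse 2 (limma adjusted p from 0.0644 to 0.0778), as did *Cnfn* without the esophagus array of mouse 2 (limma adjusted p = 0.0607). Without the esophagus array of mouse 4 they were 8.75 and 7.38. *Lor* was 5.47 without the esophagus array of mouse 2, and *Cnfn* was 5.43 without that of mouse 1 and 7.26 without the stomach array of mouse 4. *Anxa1* (annexin A1) rose by 0.67 (limma adjusted p = 0.0269) and missed the threshold with any one array left out (limma adjusted p from 0.0534 to 0.0873), with the mouse number as a block (0.0604) and with the software's signal (0.0856). With a variance trend and robust variances *Lor* and *Cnfn* did not pass (limma adjusted p = 0.104 and 0.106), nor did *Lor* at an offset of 50 on mean intensities (limma adjusted p = 0.0551). *Cnfn* was bright in the stomach of mouse 4 as well, at 12.49 against 9.12 and 9.02 in mice 1 and 2. The count of 11 was 5 without the stomach array of mouse 1 or of mouse 2 and 7 without the esophagus array of mouse 2. Calls over all probes also fell in these runs, from 6770 to 4091, 4152 and 5017 in turn.

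Of 20 *Lce* genes on the arrays, 8 rose and 12 did not pass, with a median difference of 4.88. Of all gene names, 7.15% rose. The largest were *Lce3b* (at least 1027-fold, limma adjusted p = 0.00518), *Lce3c* (at least 876-fold, 0.00568) and *Lce3a* (at least 869-fold, 0.00273), none of them well above background on a stomach array. *Lce3a* read 16.36, 16.53 and 10.81 in the esophagus, with mouse 4 again the lowest. The bounds of these 3 genes were 351-fold to 539-fold without the esophagus array of mouse 1 or of mouse 2, and 3201-fold to 4687-fold without that of mouse 4. At an offset of 50 on mean intensities they were 369-fold to 453-fold. With a variance trend and robust variances *Lce3b* and *Lce3c* did not pass (limma adjusted p = 0.0598 and 0.0629) and *Lce3a* did (limma adjusted p = 0.0411), the only one of the 20 that was called. The *Lce* count was 17 without the esophagus array of mouse 4 and 4 without the stomach array of mouse 1 or of mouse 2. Calls over all probes were 6289 without that esophagus array and 4091 and 4152 without those stomach arrays, against 6770 with all arrays.

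Of 20 transcription factors known to act on *Sprr* promoters or in squamous differentiation, 7 rose, 1 fell and 12 did not pass by their brightest probes, with a median difference of 1.16. Of all gene names, 7.15% rose and 7.70% fell. *Elf5*, an epithelial ETS factor, had a level at least 84.4-fold higher in esophageal organoids (limma adjusted p = 6.1e-05), or 35.7-fold at an offset of 50 on mean intensities, *Grhl3*, a grainyhead factor of barrier formation, rose by 4.27 (limma adjusted p = 0.00198) and *Zfp750*, a regulator of terminal differentiation, by 3.23 (limma adjusted p = 0.000586). Without the esophagus array of mouse 4 the difference of *Grhl3* was 4.93. The brightest probe of *Trp63*, the squamous lineage factor, was lower in the esophagus by -1.22 log2 units (limma adjusted p = 0.0249), whereas its other 3 probes, none of them well above background in the stomach, gave levels at least 55.7-fold to 336-fold higher in esophageal organoids (23.3-fold to 130-fold at that offset). That brightest probe missed the threshold without the array of mouse 1 or 2 of either tissue (limma adjusted p from 0.0615 to 0.110), at that offset (0.0556) and with the software's signal (0.105). None of the arrays measured *Pou2f3*, an octamer-binding factor of keratinocytes, well above background. Among AP-1 genes, the esophagus of mouse 2 stood apart for *Fosb* (7.06, 15.66 and 6.90), *Fos* (9.41, 14.59 and 9.21) and *Jun* (12.81, 15.74 and 9.89). These did not pass (limma adjusted p = 0.280, 0.919 and 0.571), nor did *Fosl2* and *Jund*, while *Fosl1* and *Junb* rose (limma adjusted p = 0.0237 and 0.0187). The count of 7 was 3 without the stomach array of mouse 1, where calls over all probes fell from 6770 to 4091. Of 13 suprabasal keratins and differentiation genes, 11 rose, 1 fell and 1 did not pass. The largest rises were those of *Krtdap* (at least 4232-fold, limma adjusted p = 3.23e-08) and the keratins *Krt6a* (at least 2802-fold, limma adjusted p = 1.12e-07) and *Krt6b* (at least 2564-fold, limma adjusted p = 1.27e-06). *Krt13* (limma adjusted p = 5.43e-07), *Spink5* (at least 379-fold, and 593-fold without the esophagus array of mouse 4; limma adjusted p = 3.31e-05) and *Rhov* (at least 14.1-fold, limma adjusted p = 0.000252) also rose. At an offset of 50 on mean intensities the bounds of *Krtdap*, *Krt6a*, *Krt6b*, *Spink5* and *Rhov* were 1828-fold, 1224-fold, 1171-fold, 167-fold and 6.79-fold. The gene that fell, *Krt1*, had a level at least 1.89-fold higher in stomach organoids (limma adjusted p = 0.0421), but missed the threshold without any one array but the esophagus array of mouse 1 (limma adjusted p from 0.0811 to 0.133), at that offset (0.0635) and with the mouse number as a block (0.0735).

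The genes whose profile over the 6 arrays was most like the family were sought by root mean square distance, in log2 units, from the median centred profile of the 9 members above background on all esophagus arrays. The nearest outside the family were *Lce3a* (distance 0.50), *2300002M23Rik* (0.52), *Ndufa4l2* (0.59), *Lce3e* (0.66) and *Klk12* (0.66). *2300002M23Rik* read 15.06, 13.74 and 10.20 in the esophagus and 4.80, 4.48 and 4.43 in the stomach. Within the family *Sprr2h* was nearest (0.10), followed by *Sprr3* (0.41) and *Sprr1b* (0.57), and *Sprr1a* (4.18), *Sprr4* (4.82) and *Sprr2b* (5.36) were farthest. All points share these 6 arrays, and the profile was drawn from 9 of the members themselves. Member distances are thus not comparable with those of outside genes, and all the distances are a description.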

How the data were processed

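The authors labelled total RNA of the organoids with one dye and read the arrays with Agilent Feature Extraction (version 11.5.1.1, named in the submitters' processing notes and the file headers). The deposited scanner files hold unnormalized spot intensity values. The authors also deposited background-corrected, quantile-normalized log2 values with column medians of 5.3253, 5.3283 and 5.3343 (esophagus of mice 1, 2 and 4) and 5.3253, 5.3313 and 5.3364 (stomach). The rows were matched to spots by number (Spearman's rho with the spot intensities 0.991 to 0.995). Normexp with an offset of 15 on median intensities, then quantile normalization over all spots, came within a median of 0.00527 of them, so scale and centring were recovered. The 2029 empty cells were the spots marked as outliers.

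In R 4.3.3 with limma 3.58.1, the deposited log2 values were averaged over the spots of each probe, and lmFit and eBayes compared 3 esophagus with 3 stomach arrays without a block, tested on simulated data first. Where no array of a tissue was well above background, a bound was computed from the bright tissue's mean and, per dim array, the higher of the probe's value and the lowest value of probes well above background. Alternatives were normexp on mean in place of median intensities with offsets of 16 and 50, the software's background-subtracted signal scaled to the 75th percentile, outlier spots kept, a filter on dim probes, the mouse or slide as a term, trend and robust variances, other call rules and each array left out. The number of arrays limits the precision.

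The members and gene lists were chosen with earlier results of these data known. Named genes were all members, every cross-linking enzyme, the 3 largest called changes per direction of longer pathway lists, genes the study's text names as differentiation markers (*Anxa1*, *Krt13*, *Spink5*, *Rhov*), the nearest named neighbours and the 5 nearest profiles, and cell marker lists are given by counts and levels. Lists of 6 fibroblast and 6 immune genes were also measured. None of the fibroblast genes passed at adjusted p under 0.05 (limma), and of the immune genes *Itgam* was higher in the stomach (limma adjusted p = 0.000662). *Cd68*, which did not pass (limma adjusted p = 0.211), read 14.77, 12.94 and 11.80 in the esophagus. In the stomach it read 11.04, 11.22 and 12.36. Other genes of the lists that the text describes (*Pou2f3* among them) were picked after their values were seen. Gene names and mm9 probe positions are those of the files, and promoters are RefSeq's (GRCm38.p6), compared in Python 3.11.15 with Biopython 1.88.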

Additional observations from a re-analysis of the deposited data

How the results depend on the processing

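The count of 6 *Sprr* genes higher in the esophagus was 5 to 7 under every alternative run, and 6 to 7 with each array left out. It was 6 with the mouse number as a replicate block, which changed no call of a member. The labels give both tissues the same mouse numbers but do not state that a number marks 1 animal, and deviations of same-numbered arrays correlated across probes with r = 0.025, 0.012 and -0.008. In no alternative did the difference of a called member change its direction, and *Sprr1b*, *Sprr2f*, *Sprr2g*, *Sprr2h* and *Sprr3* passed in each of 15 settings, although their log2 differences ranged from 7.85 (*Sprr2h*) to 13.24 (*Sprr2f*). *Sprr2d* missed the threshold with trend and robust variances (log2 difference 10.27, limma adjusted p = 0.0572). *Sprr2e* passed with the software's background-subtracted signal scaled to the 75th percentile (7.14, limma adjusted p = 0.0469) and with the slide as a term or without the esophagus array of mouse 4 (7.89, limma adjusted p = 0.0019 in both, which are the same fit for the tissue term). *Sprr2b* passed without the esophagus array of mouse 1 (-1.99, limma adjusted p = 0.0361). For the 9 members well above background on all esophagus arrays, the median SD over these arrays was 2.18. It was 0.52 to 2.82 with each array left out, the lowest without mouse 4. That signal and its scaling together moved the median difference of all probes from 0.02 to 0.19.

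With normexp on mean in place of median intensities, the counts of called genes were 11 (other envelope precursors), 7 (*Lce*) and 7 (factors) at an offset of 16 and 7, 4 and 3 at an offset of 50, against 11, 8 and 7 in the deposited values. The *Lce* count was 16 with the software's signal and its scaling, 17 with the slide as a term, 1 with trend and robust variances and 18 by unadjusted p with 1.5-fold. With each array left out, the counts ranged from 5 to 11 for precursors, from 4 to 17 for *Lce* genes and from 3 to 9 for factors. Calls over all probes ranged from 4091 to 7415 in the same runs, against 6770 with all arrays. Of the immune genes, 1 was called higher in the esophagus without the array of mouse 4. The cause of these shifts was not tested. Signal over background limits the stomach values of 8 of the 10 members, which were not well above background on all stomach arrays.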
